A study of Homo sapiens with 3 samples.

Results

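RNA crosslinked to HA-tagged HNRNPA0 was mapped in the transcripts of 8 RNA helicase genes, DDX1, DDX3X, DDX5, DDX17, DDX21, DHX9, DHX15 and DHX36, which belong to the DEAD-box and DEAH-box families and include proteins that resolve G-quadruplexes. A peak counted for a gene when its listed Ensembl gene ID was the ID of that gene, and each of the 8 symbols was matched by position to 1 of the 6583 gene IDs in the peak lists. The 8 genes held 87, 79 and 75 of the 15661, 15486 and 17791 distinct peaks of replicates 1, 2 and 3. The 3 samples formed 1 group. They came from HEK293T cells of genotype WT, a human embryonic kidney line that carries the SV40 large T antigen, that received 750 ng of an HA-tagged HNRNPA0 expression vector per 15 cm plate and were irradiated at 254 nm. The tagged protein was expressed from a vector in addition to the chromosomal gene. RNA was recovered by easyCLIP, in which UV light fixes RNA to the proteins that touch it, and the RNA is pulled down with the tagged protein, trimmed by RNase and sequenced. No control library was used here, and no label says that the replicates came from separate cultures, so the spread between them may be technical.

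DEAD-box and DEAH-box proteins are ATP-dependent enzymes that remodel RNA, named for the amino acids of a conserved motif that takes part in ATP hydrolysis. DEAD-box members pry short duplexes apart locally, while DEAH-box members move along a strand. A G-quadruplex is a stacked structure of guanine-rich nucleic acid, and DHX36 is the best known enzyme that unfolds it in RNA. HNRNPA0 is a member of the hnRNP A/B family of RNA-binding proteins. The measurements concern HNRNPA0 on the messenger RNA and pre-messenger RNA of these genes, not contact between HNRNPA0 and the helicase proteins.

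The value given for each peak is its read number, the last number of its listed name, taken here as a count of reads; the lists do not say so themselves. The lists held summed read numbers of 268608, 268445 and 221013 in replicates 1, 2 and 3, of which 100038, 99141 and 114203 lay outside the mitochondrial genome. The lowest read number in any list was 3 and the median was 4. Of 5 genes transcribed in HEK293-derived cells, VIM and NEFM had peaks and KRT8, KRT18 and PAX2 had none. Of 8 genes typical of other cell types, none had a peak. A peak list without RNA levels is a weak check of the cell type.

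HNRNPA0 crosslinked most to DDX21, then DDX3X, DDX5 and DDX17, and least to DHX36. Together the 8 genes had summed read numbers of 1067, 1024 and 939 in replicates 1, 2 and 3, which was 1.07%, 1.03% and 0.822% of the nuclear-encoded total, or 0.974% ± 0.132 (SD, n = 3). All 8 genes had a peak in every list, against 14.3% of 20056 protein-coding RefSeq genes. Peaks from different replicates were joined into a region where they shared 1 bp or more. A peak could link others that shared no base with each other, as in DHX9. A region therefore need not hold a base common to every list. By this rule 6 of the 8 genes held a region with a peak from every list. Of all gene IDs with a peak in any list 21.6% held such a region, of those with a peak in every list 43.4% did, and of protein-coding RefSeq genes 6.07% did. The 8 genes were chosen with earlier results of these data known. Their shares therefore describe these genes and are no test of helicases as a class. The 6 genes held 24 such regions, with 7 each in DDX3X and DDX5, 6 in DDX21, 2 in DHX15 and 1 each in DDX17 and DHX9. DDX1 and DHX36 held none. The median over gene IDs with such a region was 1 region, and 4.57% of them held 5 or more, as DDX3X, DDX5 and DDX21 did. RNA levels were not measured in these lists, so stronger binding and a more abundant transcript cannot be told apart for any gene.

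**Figure D1:**
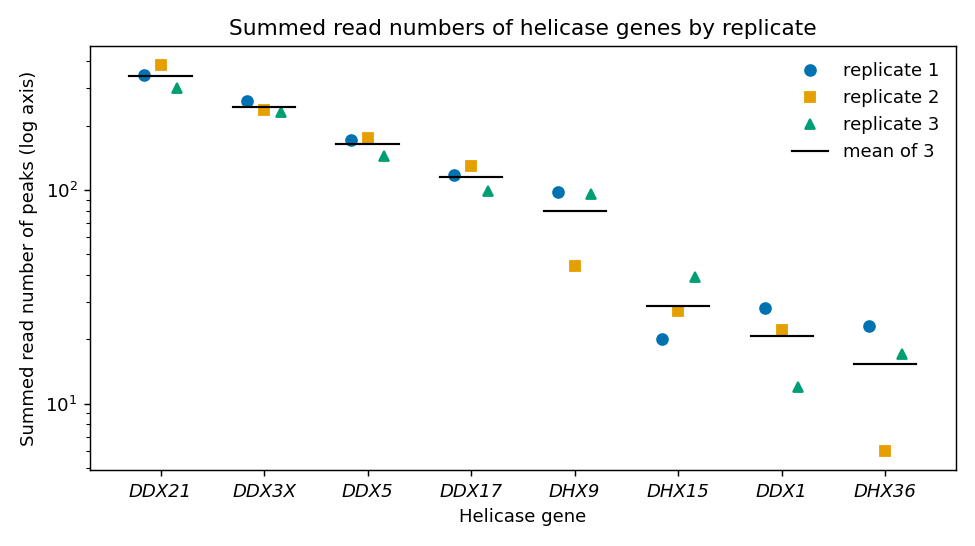
Summed read number of all peaks (log axis) for each helicase gene, with 1 symbol per replicate and a line at the mean of 3. The ranges of DDX21, DDX3X, DDX5 and DDX17 do not overlap, while those of DHX15, DDX1 and DHX36 do.

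DDX21, a nucleolar DEAD-box helicase of ribosomal RNA processing that also binds G-quadruplexes, had the highest level of the 8. Its peaks had summed read numbers of 347, 384 and 299 in replicates 1, 2 and 3, a mean of 343 ± 42.6 (SD, n = 3). Every replicate placed it above every replicate of DDX3X. By mean summed read number it ranked 13 of the 6566 nuclear gene IDs. DDX21 lies on the plus strand of chromosome 10 from 68956170 to 68985068 (hg38). Few peaks carried this total, with 9, 11 and 8 in replicates 1, 2 and 3, and the lowest of them had read numbers of 19, 18 and 17.

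The DDX21 reads were concentrated near the 3' end of the gene. All 6 regions found in every list lay between 68982589 and 68984350, a stretch of 1762 nt that is 6.10% of the gene interval. That stretch held 79.0%, 82.3% and 94.3% of the gene's summed read number in replicates 1, 2 and 3. Its ends were set by the regions themselves. The interval includes introns, so 6.10% is not its share of the spliced transcript. The same limit holds for the other shares and peak densities given by gene interval. The highest region, from 68983356 to 68983603, had highest read numbers of 78, 70 and 99. It exceeded each other DDX21 region in every replicate. The region from 68982589 to 68982753 had 45, 55 and 39, and the one from 68983852 to 68983956 had 49, 40 and 35. The ranges of that pair overlap. The region from 68983604 to 68983709, with 36, 38 and 45, touches the highest one end to end, so the pair may be 1 stretch of binding. The last region, from 68984269 to 68984350, ends 718 nt before the 3' end of the interval and had 34, 26 and 19.

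Outside that stretch DDX21 had peaks that recurred in replicates 1 and 2 and not in replicate 3. At 68960073 to 68960155, which is 13.6% of the way along the gene, read numbers were 32 and 29 in replicates 1 and 2. At 68971954 to 68972006 replicate 1 had 22, and replicate 2 had a pair of peaks of 21 and 18. Replicate 3 had 1 peak outside the stretch, with a read number of 17, and it lay closer still to the 3' end.

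**Figure D2:**
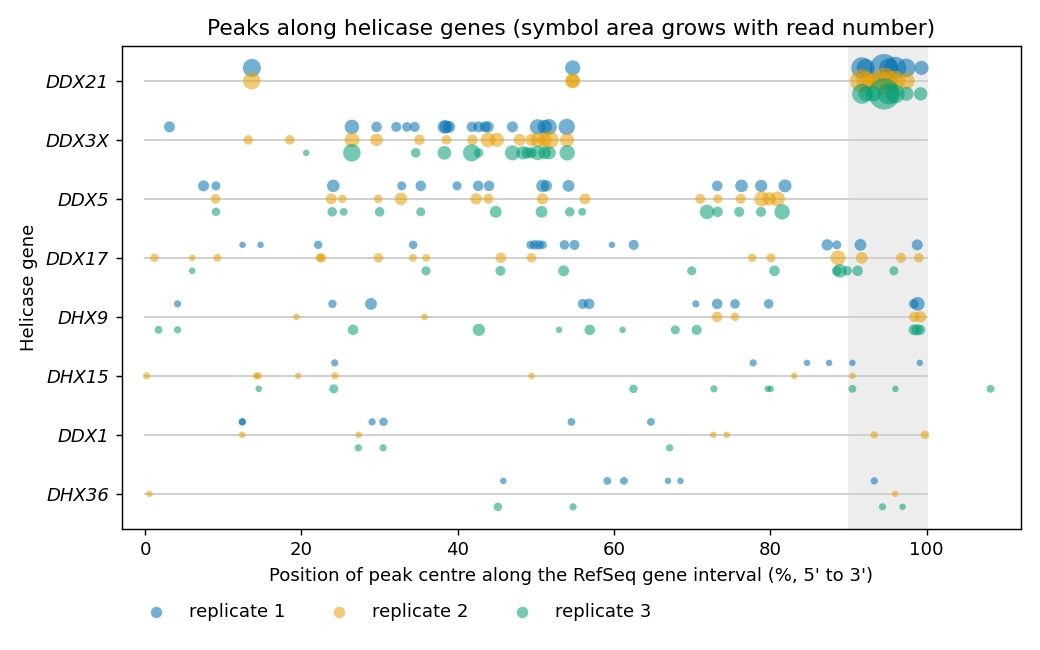
Peak centres along each RefSeq gene interval from its 5' to its 3' end (percent), 1 row per gene with replicates 1 to 3 from top to bottom in each row. Symbol area grows with read number and the grey band marks the final 10% of the interval. DDX21 peaks crowd into the band, DDX3X peaks stop near the middle, and DDX5 peaks run along the gene.

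DDX3X, an X-linked helicase that helps translation start on messenger RNAs with structured leaders, came next. Its summed read numbers were 261, 237 and 233, a mean of 244 ± 15.1 (SD, n = 3), and its rank was 24. It had 18, 15 and 14 peaks in replicates 1, 2 and 3, more per replicate on average than any of the other 7 genes. DDX3X lies on the plus strand of X from 41333308 to 41364472. Its 7 regions found in every list lay between 41341497 and 41350179, a stretch that is 27.9% of the interval. All peaks in it accounted for 95.9% ± 2.73 of the DDX3X reads in peaks (SD, n = 3).

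The DDX3X regions had mean highest read numbers from 14.3 to 23.7. The first, from 41341497 to 41341616, had highest read numbers of 20, 21 and 30. The region from 41349363 to 41349515 had 24, 31 and 16, and the one from 41350072 to 41350179 had 26, 19 and 23. Their ranges overlap, and no region stood above the others in every replicate. The region from 41346260 to 41346390 was uneven, with 10, 10 and 29. The region with the lowest mean, from 41345185 to 41345325, had 17, 8 and 18. Its peaks in replicates 2 and 3 shared no base and were joined by a replicate 1 peak. The last 4 regions fell in 1272 nt, from 41348908 to 41350179, and accounted for 35.3% ± 2.91 of its reads in peaks (SD, n = 3). No DDX3X peak lay in the final 14293 nt of the interval in any list. The RefSeq interval spans all RefSeq transcripts of the gene, and which of them the cells make was not measured here.

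**Figure D3:**
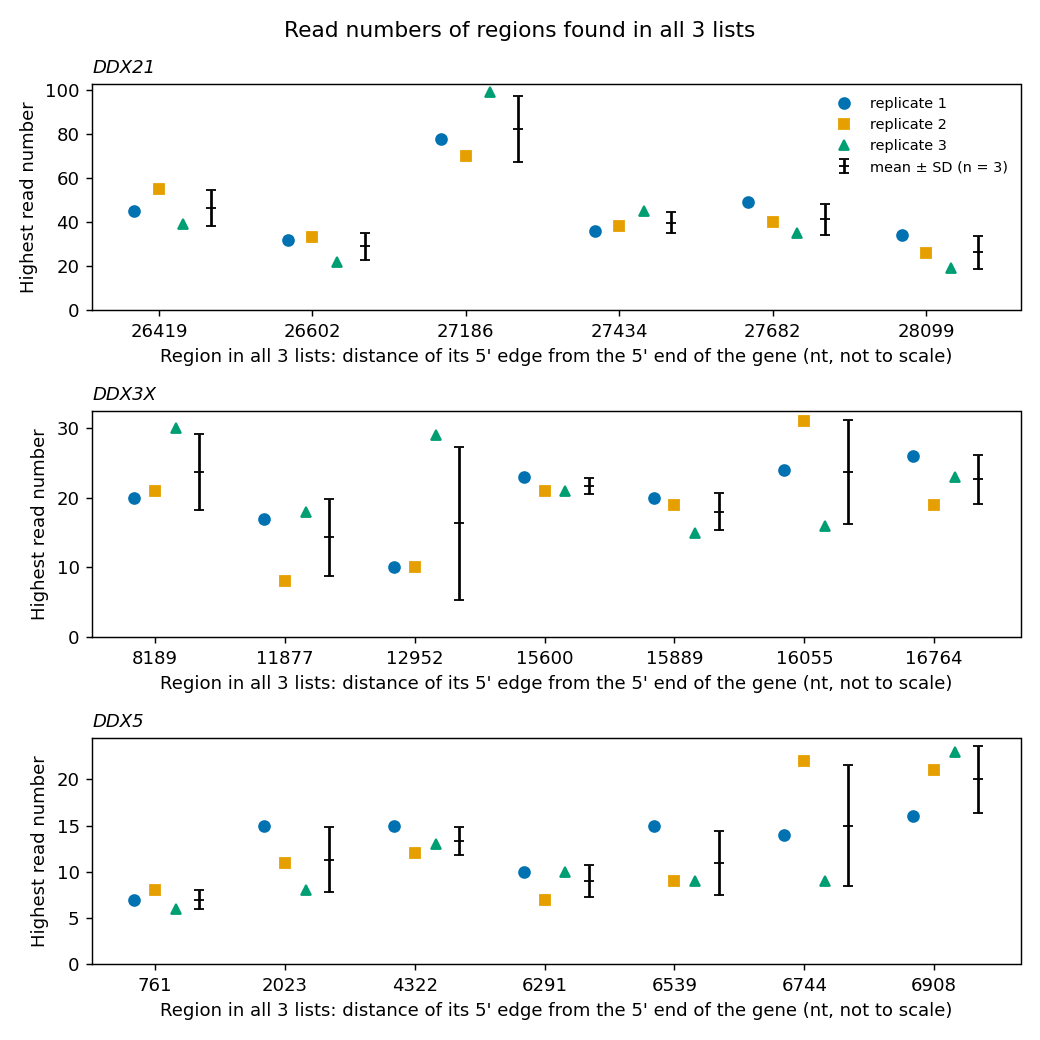
Highest read number in each region found in every list, for DDX21, DDX3X and DDX5, ordered from the 5' end, with 1 symbol per replicate and the mean ± SD (n = 3) beside them. The DDX21 region that starts 27186 nt from the 5' end stands above the others at 70 to 99, while the DDX3X regions stay between 8 and 31.

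DDX5 and DDX17 encode the closely related DEAD-box proteins p68 and p72, which act in transcription, splicing and microRNA processing. DDX5 had summed read numbers of 172, 175 and 144, a mean of 164 ± 17.1 (SD, n = 3), and DDX17 had 118, 129 and 99, a mean of 115 ± 15.2 (SD, n = 3). DDX5 was higher in every replicate, and their ranks were 53 and 95. The paralogs had similar numbers of peaks, with 15, 15 and 14 in DDX5 and 16, 16 and 11 in DDX17. They differed in how often the peaks recurred. Of the DDX5 read number, 60.5%, 51.4% and 54.2% lay in regions found in every list, against 5.93%, 17.1% and 27.3% for DDX17. The ranges do not overlap. DDX5 is the shortest of the 8 genes at 8613 bp (chromosome 17, minus strand, 64498254 to 64506866) and had 1.70 peaks per kb of interval. DDX17 spans 22874 bp (chromosome 22, minus strand, 38483438 to 38506311) and had 0.627 peaks per kb. Closely packed peaks can overlap more readily, and the shares in regions were not corrected for this density. When 2 lists sufficed, DDX5 held 14 regions and DDX17 held 9.

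DDX5 regions were spread along the gene. The 4 nearest the 3' end lay in a stretch of 809 nt, from 64499767 to 64500575. All peaks in that stretch accounted for 32.0%, 43.4% and 35.4% of the DDX5 reads in replicates 1, 2 and 3, and in replicate 2 they include a peak of 17 reads, from 64499959 to 64500020, that is in none of the 4 regions. The region with the highest mean of the 4, from 64499767 to 64499958, had read numbers of 16, 21 and 23, and ends 1513 nt before the 3' end of the interval. In replicate 2 the region from 64500021 to 64500122 was higher, with 22. The region from 64502439 to 64502544 had 15, 12 and 13, and the one from 64504745 to 64504843 had 15, 11 and 8. The 5'-most region, from 64506076 to 64506105, had read numbers of 7, 8 and 6 and the lowest mean of the 7 regions. In replicate 2 the region from 64500549 to 64500575 was lower, with 10, 7 and 10 over the replicates. The sequence of the 5'-most region, from 64506076 to 64506105, is shown. It is the DDX5 region that lies inside a RefSeq start window (GRCh38.p14, 250 bases before to 50 after an annotated start). Capitals mark the 30 nt of the region and lower case the next 20 bases, 5′ to 3′ on the minus strand, at chr17:64506076-64506105 for the capitals.
DDX5 5' region: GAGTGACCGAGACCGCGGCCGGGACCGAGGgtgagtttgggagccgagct

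The 3 peaks in that DDX5 region all ended at the same base, 64506076. It was the only 1 of the 24 helicase regions, or 4.17%, with an edge shared to the base by the 3 lists, against 6.35% of the 2442 regions of other nuclear gene IDs. The next 6 bases are GTGAGT, which match the usual start of an intron. Exon annotation was not used here. The region is 76.7% G and C and starts 14 nt after the A of the first ATG of its window. It holds 1 run of GGG and no TAGG, the DNA letters of a motif known for hnRNP A1. Over whole start windows, GGG on the gene's strand was found in 96.7% of 35116 and TAGG in 49.9%. Counting both strands, the shares were 99.5% for GGG and 71.5% for TAGG. Whole windows are far longer than the region, so these shares are no background for the motifs it holds.

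A DDX5 region from 64500610 to 64500763 had 9 reads in replicate 2 and 20 in replicate 3. Replicate 1 had no peak in it. The replicate 2 peak, from 64500735 to 64500763, lies 10 nt from the interval of MIR3064. The replicate 3 peak, from 64500610 to 64500740, lies farther from it. MIR3064 is a microRNA gene inside DDX5 on the same strand at 64500774 to 64500839. The mature microRNAs are shown, from RefSeq (GRCh38.p14), to identify that neighbour, with seed bases 2 to 8 in capitals.
hsa-miR-3064-5p: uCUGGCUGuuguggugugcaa
hsa-miR-3064-3p: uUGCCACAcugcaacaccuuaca

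The single DDX17 region found in every list, from 38485934 to 38486116, had highest read numbers of 7, 22 and 18. The replicate 3 peak of 18 shared no base with the replicate 1 peak. A second replicate 3 peak, from 38486048 to 38486088, lay within the replicate 1 peak and had 9 reads. Further DDX17 regions came from 2 lists, 8 in all, such as 38485274 to 38485420 with 13 and 13 in replicates 1 and 2, and 38483637 to 38483762 with 11 and 8 in the same replicates. When 2 lists sufficed, DDX17 held 9 regions. With 1 replicate left out it held 4 without replicate 1, 2 without replicate 2 and 5 without replicate 3, and with an overlap of 50% of both peaks it held none.

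DHX9, also known as RNA helicase A, unwinds double-stranded RNA, R-loops and G-quadruplexes. Its summed read numbers were 98, 44 and 96, a mean of 79.3 ± 30.6 (SD, n = 3). Replicate 2 was low, and it also had fewer peaks, 6 against 11 and 12 in replicates 1 and 3. As shares of the nuclear-encoded total, DHX9 had 0.0980%, 0.0444% and 0.0841%, and DDX17 had 0.118%, 0.130% and 0.0867%, so these neighbours in the order overlap. DHX9 spans 48636 bp on the plus strand of chromosome 1 from 182839347 to 182887982. Its region in every list lay 760 nt before the 3' end, from 182887143 to 182887222, with read numbers of 8, 10 and 10. The peaks of replicates 1 and 2 in it, at 182887164 to 182887176 and 182887186 to 182887222, shared no base. The replicate 3 peak joined them. The highest DHX9 peak of any list, with 18 reads in replicate 1, lay just downstream in a region from 182887348 to 182887472. That region had 12 in replicate 3 and no peak in replicate 2. In replicate 3 the highest peak, with 14 reads, lay at 182860062 to 182860160 and was found in 1 list. When 2 lists sufficed DHX9 held 7 regions, it held 2, 4 and 2 without replicates 1, 2 and 3, and with an overlap of 50% of both peaks it held none.

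DHX15, the human counterpart of yeast Prp43, releases the intron lariat from spent spliceosomes. Its peaks were low, 6, 8 and 9 in number in replicates 1, 2 and 3, with summed read numbers of 20, 27 and 39 and highest read numbers of 4, 4 and 7. It spans 57080 bp (chromosome 4, minus strand, 24527475 to 24584554). It held 2 regions in every list. The one from 24532864 to 24532945 had 3, 3 and 5, and the one from 24570653 to 24570825 had 4, 4 and 7. In the latter the peaks of replicates 2 and 3 shared no base and were joined by that of replicate 1. Neither region was left when only peaks of 5 reads or more were used. In replicate 3 1 DHX15 peak, with a read number of 5, lay beyond the 3' end of the interval, from 24522754 to 24522870, under the same gene ID.

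DDX1, a DEAD-box protein of the complex that ligates transfer RNA exons, had summed read numbers of 28, 22 and 12. It had 6, 6 and 3 peaks, none above a read number of 6. Regions found in 2 lists lay at 15596734 to 15596743, with 4 and 3 in replicates 1 and 2, and at 15603814 to 15603849, with 6 and 4 in replicates 1 and 3. DHX36, the G-quadruplex resolvase, had the lowest mean, with summed read numbers of 23, 6 and 17. Its 6, 2 and 4 peaks formed 12 regions, each from 1 list, so no DHX36 position recurred between replicates. The summed read numbers of DHX15, DDX1 and DHX36 overlap, and their order is not settled by 3 replicates.

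**Figure D4:**
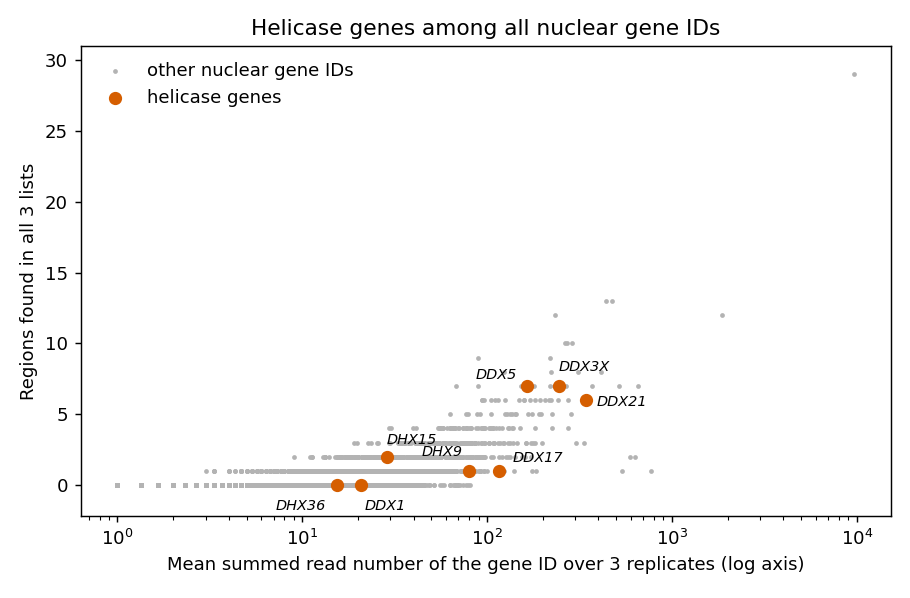
Regions found in every list against the mean summed read number (log axis) for all nuclear gene IDs (grey) and the helicase genes (orange). DDX21, DDX3X and DDX5 lie above the other helicase genes with 6, 7 and 7 regions, and DHX36 and DDX1 at 0. The grey symbol at the top is XIST with 29.

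The lowest peak listed for a gene was higher where the gene's total was higher. Among nuclear gene IDs with 3 or more peaks in a list, the median of the lowest read number was 3 for summed read numbers of 9 to 29 and 8 for 200 to 400. DDX21 lay above that median in each list, with lowest peaks of 19, 18 and 17. DDX3X had lowest peaks of 8, 8 and 3, and DDX5 had 7, 6 and 5. DDX17, DHX15 and DHX36 had a lowest peak of 3 in every list. Numbers of peaks are therefore not counted down to the same read number in these genes.

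**Figure D5:**
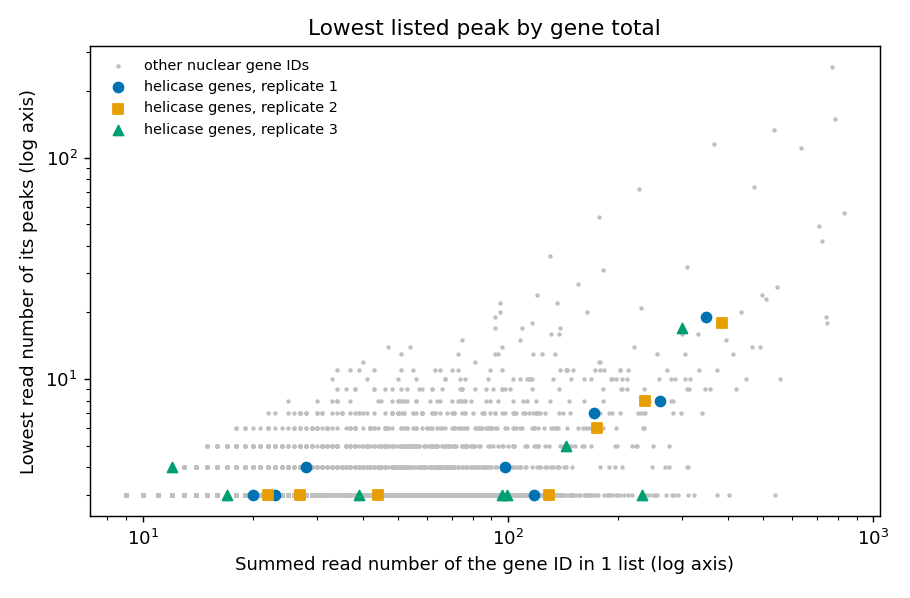
Lowest read number among a gene ID's peaks against its summed read number in the same list (both log axes), for nuclear gene IDs with 3 or more peaks in the list, leaving out the largest sums. Helicase genes are coloured by replicate. The 3 DDX21 symbols sit at 17 to 19, and the DDX17, DHX15 and DHX36 symbols at 3.

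Helicase peaks as a whole recurred between replicates more often than other peaks. Within the classes of 10 to 19 and of 20 or more reads, they lay less often in a region found in every list. Between 39.2% and 49.4% of the helicase peaks of a list shared a base with a peak of another list, depending on the pair, with a mean of 43.0%. For other nuclear gene IDs the values ran between 23.0% and 26.8% with a mean of 25.4%. Of helicase peaks 17.8% had a read number of 20 or more, against 3.06% of other nuclear peaks. At 20 reads or more, 79.3% ± 4.58 of helicase peaks lay in a region found in every list, against 88.3% ± 1.32 in other genes (SD, n = 3). At 10 to 19 reads, 34.4% ± 5.09 of helicase peaks did, against 57.5% ± 1.46 in other genes (SD, n = 3). The helicase value was lower in each of the 3 lists in both classes. The class of 20 or more has no upper bound, so read numbers within it need not be alike. The lowest listed peak also differed between genes, at 19, 18 and 17 reads in DDX21, so a weaker counterpart in another list may be unlisted. Whether either point lowers the helicase values was not tested. At 5 to 9 reads 18.4% ± 7.83 of helicase peaks did, against 22.1% ± 0.263 in other genes (SD, n = 3), within the spread of the helicase values. At 3 to 4 reads the helicase value was the higher, 7.41% ± 6.42 against 4.88% ± 0.564 in other genes (SD, n = 3), again within the spread of the helicase values, which were 11.1%, 11.1% and 0%. No test was attached, since 3 pairs of values cannot reach an exact p of 0.05.

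Most of the helicase regions close to the 3' end of a RefSeq interval belonged to DDX21. Of the 24 regions found in every list, 8 were centred in the final 10% of the gene interval, which is 33.3%, against 39.8% of 2199 regions in other protein-coding genes. The 8 were the 6 regions of DDX21, the region of DHX9 and 1 region of DHX15. With DDX21 left out, a choice made after seeing the values, 2 of 18 regions were, or 11.1%. Neither the 7 regions of DDX3X nor the 7 of DDX5 lay there, and the gap between the last peak and the end of the RefSeq interval was 14293 nt in DDX3X and 1513 nt in DDX5. The interval spans all RefSeq transcripts of a gene, so these gaps need not be distances to the 3' end of the transcript the cells make.

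Of 59 other helicase genes listed by role, 30 had a peak in any list, 18 had a peak in every list and 4 held a region in every list. These are 50.8%, 30.5% and 6.78% of the 59, against 28.1%, 14.3% and 6.07% of protein-coding RefSeq genes, so the share with a region in every list was near that of all genes. Those 4 were DDX39B, EIF4A1, EIF4A2 and DDX6. Among 16 helicases of translation, export and decay 3 did. DDX6, a helicase of messenger RNA decay and storage, held 3 regions with summed read numbers of 122, 87 and 71, close to those of DDX17. EIF4A1, the helicase of the cap-binding complex, held 3 with 144, 93 and 107, and its paralog EIF4A2 held 3 with 55, 42 and 61. Small nucleolar RNA genes lie within EIF4A1 and EIF4A2, and peaks listed under 3 gene IDs were pooled for each. DHX34, DHX57 and SKIC2 had no peak.

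Among 11 spliceosome helicases only DDX39B, which acts in splicing and messenger RNA export, held regions, 2 in number, with summed read numbers of 55, 49 and 32 pooled over 3 gene IDs. DDX23, DDX41 and DDX46 had no peak. Of 15 helicases of ribosome biogenesis, the role DDX21 shares, 7 had a peak and none held a region in every list. DDX18 had summed read numbers of 13, 23 and 14, DDX50, the closest paralog of DDX21, had 0, 8 and 6, and DDX27, DDX31 and DDX49 had no peak. Of 7 DNA helicases described as unwinding G-quadruplexes, 6 had a peak and none held a region in every list. BRIP1 was the highest of them with 26, 11 and 47, and RTEL1 had no peak. None of the 5 RNA-sensing helicases, such as DDX60, DDX60L and DHX58, and none of the 5 germ-line helicases, such as DDX25, DDX4 and DDX43, had a peak.

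By summed read number over the 3 replicates, the protein-coding genes nearest to DDX21 were HNRNPA0, NCL and SERBP1. Their distances on the log2 scale of summed read numbers were 0.27, 0.28 and 0.38. HNRNPA0 had 308, 358 and 340, and its reads may come from the vector or the chromosomal gene. NCL, the gene of the nucleolar protein nucleolin, had 334, 464 and 304 with 7 regions in every list, and SERBP1, whose protein binds RNA and ribosomes, had 305, 308 and 314 with 8.

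Reads from near-identical copies can be assigned to the wrong locus. The pseudogenes DDX3P1, DDX3P2, DDX3P3, DDX5P1 and DHX9P1 held no peak in any list, and no helicase peak was listed at the same interval under a second gene ID. These checks cannot show whether pseudogene reads were placed on the helicase genes, since how such reads were aligned is not given.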

How the data were processed

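Each replicate had its own deposited peak list, with no header, and peaks were thus called per sample. Each line holds a position, a strand, a name ending in a whole number, and a p-value from the authors' caller, all deposited values being under 0.05 with no adjustment stated. Per the submitters' processing notes, the build was hg38 and the tools included bedtools and deepTools, with no version. The aligner, the peak caller and how molecular identifiers were handled are not given in the sources used here. Ranked within gene IDs of 5 or more peaks, the whole number fell as the p-value rose, with Spearman correlations across peaks of -0.89, -0.88 and -0.87 in replicates 1, 2 and 3. It was therefore read as the reads in the peak. Peaks may share reads, so sums are descriptions and carry no counting interval, and reads outside peaks were not analysed here.

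Gene IDs were tied to the RefSeq gene (GRCh38.p14) that held at least 90% of their peak centres on its strand; 6208 were tied to 1 gene, 132 to several and 243 to none. Regions were made within each gene ID by joining peaks that overlap by 1 bp or more, a step tested on simulated data. Python 3.11.15, pandas 2.3.3 and numpy 2.4.6 were used. With 1 group and no control, no test between groups was possible. All 8 helicase genes are named, with every listed helicase holding a region in all 3 lists, up to 3 per list without a peak in alphabetical order, and the 3 genes nearest the strongest member. DDX18, DDX50 and BRIP1 were named after their values were seen. The members and lists were chosen with earlier results of these data known.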

Additional observations from a re-analysis of the deposited data

How the results depend on the processing

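Between 4 and 7 helicase genes held a region in the lists required, under all alternatives run. There were 24 helicase regions as reported and 55 where a pair of lists was enough. Dropping a replicate, which also leaves a pair of lists, gave 30 to 37 regions, the highest without replicate 3. Of the other listed helicase genes 4 held a region as reported, 12 where a pair of lists was enough, and 6 to 9 with a replicate dropped, 9 without replicate 2 and 7 without replicate 3. The overlap of helicase peaks was 43.0% as reported, 27.8% where 50% of both peaks had to overlap, 47.1% for the 50% of each list with the lower p-values, 49.0% for read numbers of 5 or more and 38.5% without the DDX21 gene, an alternative chosen after seeing the data. The share of nuclear-encoded read numbers was 0.974% as reported and 1.23%, 1.36% and 0.644% under the last 3 of these settings. Without DDX21, 11.1% of regions were centred in the final 10% of the gene. Naming peaks by RefSeq interval and strand, joining touching regions and counting touching peaks once changed no result by more than the limits set. No paired analysis was possible because the 3 replicates form 1 group. Low read numbers limit DDX1, DHX15 and DHX36 most. The summed read numbers of these genes overlap, and differences among them were not tested.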
